A study of Mus musculus with 22 samples.

Results

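Cited1, Cited2 and Cited4 encode the CITED transcriptional modulators, and Crebbp and Ep300 encode the acetyltransferases CBP and p300 that CITED proteins bind. The 5 genes were chosen by symbol from the deposited expression table, in which all 5 listed symbols were found among 54514 entries. The choice used measured values: Cited1 had the highest rise after Aqp2, the vasopressin-regulated water channel gene, in the comparison of wild-type cells with and without dDAVP, also called desmopressin, which activates the vasopressin V2 receptor. Values of the 5 genes in that comparison are therefore given as a description, with no test. The 5 genes were tested only between sorted fractions and between clones, in libraries other than the 6 WT libraries of that comparison.

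CITED proteins have no DNA-binding domain of their own. They attach through a conserved C-terminal region to CBP and p300, and so bring these coactivators to transcription factors or keep other factors from them. CITED2 is best known for competing with HIF-1 alpha for the same domain of CBP and p300, CITED2 and CITED4 act as coactivators of AP-2 factors, and CITED1 works with SMAD4 and the estrogen receptor. In the kidney, Cited1 is known as a marker of self-renewing nephron progenitors in the embryo. CBP and p300 acetylate histones and other proteins, and CBP was named for its binding to CREB, the factor that cAMP signalling activates. The V2 receptor signals through cAMP in the principal cells of the collecting duct.

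The study measured RNA of mpkCCD cells, an immortalised mouse line from the cortical collecting duct, in 22 libraries that form 10 groups, and its title concerns variability of aquaporin-2 between cells as read with a GFP reporter. Unsorted wild-type (WT) cells had no dDAVP (3 libraries) or dDAVP (3 libraries). The GFP reporter lines are 4 clones named C1, C11, C43 and C50, each given dDAVP and then sorted by GFP. Each clone has 2 GFP-negative and 2 GFP-positive libraries, so no clone library without dDAVP was analysed here. All cells were kept on permeable supports, and treatment was given in a serum-free medium that held 50 nM dexamethasone in every group. The labels name 0.1 and 1 nM dDAVP and 24 and 48 h for the series without assigning them to libraries, and they do not give the reporter construct or its promoter. Each clone is a single line, and the labels do not say that libraries of a group came from separate cultures, so p-values measure the spread between these libraries, which may be technical.

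Expression is in the authors' TPM (transcript abundance per length), which is scaled to transcript length and to a fixed total, so that levels of different genes can be set side by side and sequencing depth is unknown. Libraries held 12293 to 14341 genes at 1 TPM or more and 17177 to 31292 genes above 0. Ribosomal protein transcripts made up 3.85% to 6.12% of TPM in all libraries except GFP-negative replicate 1 of C50, where they made up 8.32%. GFP was 0 to 0.79 TPM in WT cells, 5.31 to 17.6 TPM in GFP-negative and 1065 to 1567 TPM in GFP-positive fractions, as the labels imply. Of 12 principal cell markers, 7 were at 1 TPM or more in every library, while Scnn1b, Kcnj1 and Elf5 stayed under 1 TPM in every library. Of 10 intercalated cell markers, 2 were at 1 TPM or more in every library (Atp6v1b1 and Car2) and 6 in none, among them Foxi1, the factor that defines these cells. Rhcg, an ammonia transporter gene of the list, was 79.1 to 111 TPM in WT and 0 to 2.04 TPM in clone libraries, and Slc4a9 was 0.16 to 1.57 against 0.96 to 8.83 TPM.

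The start regions of Cited1 and Cited4 are shown because these are the members that differed between GFP fractions. They are the 250 bases upstream of each RefSeq start on the GRCm38.p6 build, 5′ to 3′ in the direction of transcription, and all 5 members matched by symbol. The build of the deposited table is not given in the sources used here, and which of the 3 Cited1 starts these cells use was not measured. Capitals mark matches to the CREB core TGACG, the hypoxia response core ACGTG or the AP-2 site GCCNNNGGC, each searched on both strands. The Cited1 windows lie on the minus strand at chrX:102252182-102252431 (start 1), chrX:102251844-102252093 (start 2) and chrX:102250777-102251026 (start 3), and the Cited4 window lies on the plus strand at chr4:120666313-120666562.
Cited1 start 1: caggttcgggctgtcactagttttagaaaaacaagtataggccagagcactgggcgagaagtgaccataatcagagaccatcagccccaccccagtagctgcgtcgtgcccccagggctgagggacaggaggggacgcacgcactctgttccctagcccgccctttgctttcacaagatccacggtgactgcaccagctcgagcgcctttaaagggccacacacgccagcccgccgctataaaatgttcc
Cited1 start 2: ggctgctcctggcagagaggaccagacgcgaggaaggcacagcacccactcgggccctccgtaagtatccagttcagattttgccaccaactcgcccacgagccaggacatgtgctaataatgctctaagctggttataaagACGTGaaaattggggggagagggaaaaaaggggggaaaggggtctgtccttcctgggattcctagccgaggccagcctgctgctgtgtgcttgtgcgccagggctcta
Cited1 start 3: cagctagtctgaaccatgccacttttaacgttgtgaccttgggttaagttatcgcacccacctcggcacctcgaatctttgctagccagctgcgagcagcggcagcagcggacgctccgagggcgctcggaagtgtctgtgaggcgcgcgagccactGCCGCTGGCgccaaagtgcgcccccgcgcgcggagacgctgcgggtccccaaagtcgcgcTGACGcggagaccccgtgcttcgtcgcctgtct
Cited4 start: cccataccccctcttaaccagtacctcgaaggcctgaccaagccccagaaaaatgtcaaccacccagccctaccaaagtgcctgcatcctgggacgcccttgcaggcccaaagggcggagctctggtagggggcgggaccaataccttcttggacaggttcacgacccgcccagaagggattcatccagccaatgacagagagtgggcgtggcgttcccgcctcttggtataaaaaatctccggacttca

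Cited1 start 3 held the CREB core at 33 to 29 bases and an AP-2 site at 93 to 85 bases before the start. Cited1 start 2 held the hypoxia core at 108 to 104 bases before the start. Neither Cited1 start 1 nor Cited4 held any of these letters. Among 32851 windows of the same length over all genes, 17.8% held the CREB core, 16.6% the hypoxia core and 13.7% the AP-2 site. The full CREB site TGACGTCA, which contains the core, occurred in 1.55% of those windows and in none of the 7 windows of the 5 members. The Cited2 window at chr10:17722978-17723227 (plus strand) held the hypoxia core on both strands, overlapping as CACGTG, and the Crebbp window at chr16:4213405-4213654 (minus strand) held 2 AP-2 sites. A match is a description of the letters and does not show binding.

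Cited1 (ENSMUSG00000051159) was close to silent without dDAVP and varied most of the 5 genes. In WT cells without dDAVP it was 1.04, 1.25 and 0.70 TPM, and with dDAVP 39.6, 37.5 and 38.3 TPM. The groups lay far apart, where 35.8% of 13494 genes had groups that did not overlap, and the 3 libraries with dDAVP were nearly equal. The ratio of means was 38.6, and the log2 change of 4.31 was second to that of Aqp2 (5.36). All log2 changes here are differences of means of log2(TPM + 1), which understate the change of a gene as low as Cited1 without dDAVP. The ranks were read over called genes with a mean of at least 5 TPM and groups that did not overlap. The next rise in size there belonged to Gm23187, a provisional symbol listed at 0 without dDAVP and at a mean of 15.4 TPM with it. A gene at 0 has no ratio, so the order of Cited1 and Gm23187 depends on the pseudocount of 1. Of 13494 genes tested over the 6 WT libraries, 8.88% were called, 2.37% higher with dDAVP and 6.51% lower, and the number called ran from 314 to 2038 when 1 library was left out. The excess of lower calls depended on scaling. Higher were 320 of 1198 calls here, 575 of 902 with median-ratio scaling and 729 of 1204 with a length and GC correction.

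In every clone, Cited1 was higher in the GFP-positive fraction. In C1 it was 13.6 and 12.7 TPM in GFP-negative and 35.4 and 39.0 TPM in GFP-positive cells. In C11 the values were 3.04 and 3.58 TPM against 9.67 and 10.8 TPM. In C43 they were 15.7 and 16.7 TPM against 36.9 and 50.3 TPM. The 2 fractions did not overlap within any of these clones, and C11 was lowest in both. Over all genes tested, fractions of 2 libraries each did not overlap in 54.8% for C1, 61% for C11, 60.4% for C43 and 53.5% for C50, and 6.72% of genes were higher without overlap in all 4 clones. In C50 the values were 26.3 and 18.7 TPM against 75.4 and 72.9 TPM, the highest of all groups. Between clones the fractions did overlap, since GFP-positive C11 lay below every GFP-negative library of the other 3 clones. Each library pools many cells, so more cells with Cited1 and more Cited1 per cell cannot be told apart.

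In a fit of all 16 clone libraries that accounts for clone, the Cited1 change from GFP-negative to GFP-positive was 1.47 (SE 0.0916, 95% interval 1.27 to 1.66, limma with Benjamini-Hochberg adjustment over 13113 genes, adjusted p 4.09e-08). This corresponds to 2.77-fold (2.42 to 3.17) on the log2(TPM + 1) scale, and Cited1 was higher in 8 of 8 same-numbered comparisons of fractions. The library numbers were not treated as pairs, so such counts, here and below, are a description and not 8 independent comparisons. In this fit 12.1% of all genes tested were called higher and 23.2% lower, 35.3% in all, and 8.88% were higher in all 8 comparisons. Leaving out GFP-negative replicate 1 of C50, the library with the high ribosomal protein share, gave 1.49 (limma adjusted p 3.58e-08). With the 4 clone means as replicates the adjusted p from limma was 0.00161.

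Within single clones the limma change of Cited1 (SE 0.183) was 1.43 for C1 (adjusted p 0.000703), 1.38 for C11 (0.000938), 1.36 for C43 (0.000567) and 1.70 for C50 (8.02e-05). In C1, C11, C43 and C50 respectively, 2.31%, 2.23%, 4.29% and 12.8% of genes were called higher, 4.91%, 5.7%, 12% and 13.8% lower, and 7.22%, 7.94%, 16.3% and 26.6% in either direction. The ratios of means were 2.83, 3.09, 2.70 and 3.30. Only 1.14% of the genes tested were called higher in all 4 clones, and Cited1 and Cited4 were among them. The test of a difference in the Cited1 change between clones gave a limma adjusted p of 0.752, in a family in which 0.869% of genes were called. This does not show that the clones responded alike.

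**Figure D1:**
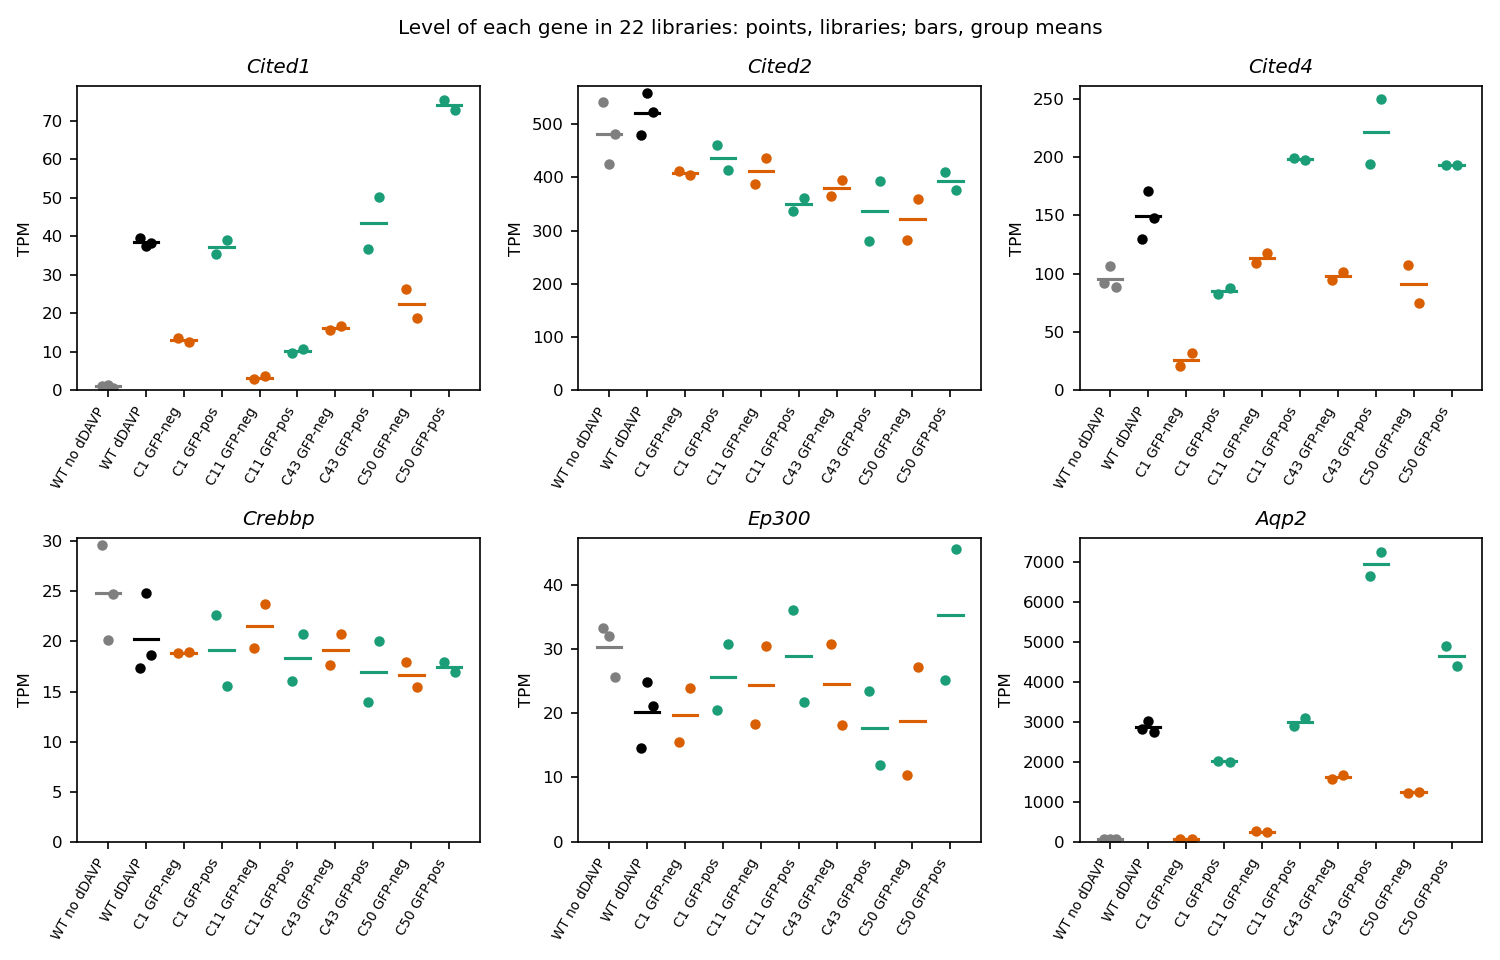
TPM (linear axes from 0) of the 5 genes and of Aqp2 in each of 22 libraries, by group; points are libraries and bars are group means. Cited1 runs from 0.70 to 75.4 TPM, Cited4 is lowest in GFP-negative C1, and Cited2 and Crebbp span about the same range in both fractions.

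The level of Cited1 differed between clones within each fraction. In GFP-negative cells the limma F-test over the 4 clones gave an adjusted p of 2.95e-05 (16.9% of genes called), and in GFP-positive cells 1.27e-05 (18.9% called). Without clone C11 the first fell short of the threshold (adjusted p 0.104) and the second did not (0.0209). The order of group means was GFP-positive C50 at 74.1 ± 1.75 TPM (SD, n = 2), GFP-positive C43 at 43.6 ± 9.53 (n = 2), WT with dDAVP at 38.5 ± 1.04 (n = 3) and GFP-positive C1 at 37.2 ± 2.55 (n = 2). The last 3 of these overlapped in order, while C50 stood clear of them. Below them came GFP-negative C50 at 22.5 TPM, C43 at 16.2 and C1 at 13.1, then GFP-positive C11 at 10.2, GFP-negative C11 at 3.31 and WT without dDAVP at 0.997. No neighbouring pair in this lower part of the order overlapped.

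Group means of log2(TPM + 1) of Cited1 and Aqp2 had a Pearson r of 0.79 (Spearman rho 0.77) over 10 groups and 0.65 (0.67) over the 8 clone groups, which share clones and treatment, so that these are a description. Cited1 did not follow Aqp2 in every group. GFP-negative C1 had as little Aqp2 (72.6 and 66.5 TPM) as WT cells without dDAVP (64.1, 74.9 and 68.4 TPM), and these ranges overlap. Its Cited1 of 13.6 and 12.7 TPM was above all 3 of those WT libraries. GFP-positive C11 had more Aqp2 (2896 and 3108 TPM) than GFP-positive C1 (2027 and 2008 TPM) and less Cited1 (9.67 and 10.8 against 35.4 and 39.0 TPM). GFP-positive C43 had the highest Aqp2, 6649 and 7254 TPM, but less Cited1 than GFP-positive C50, where Aqp2 was 4894 and 4409 TPM. These pairs of groups were singled out after their values were seen, and the share of all genes that separate them was not computed. The GFP-negative C1 and WT groups differ in clone, sorting and dDAVP at once, and these cannot be told apart.

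**Figure D2:**
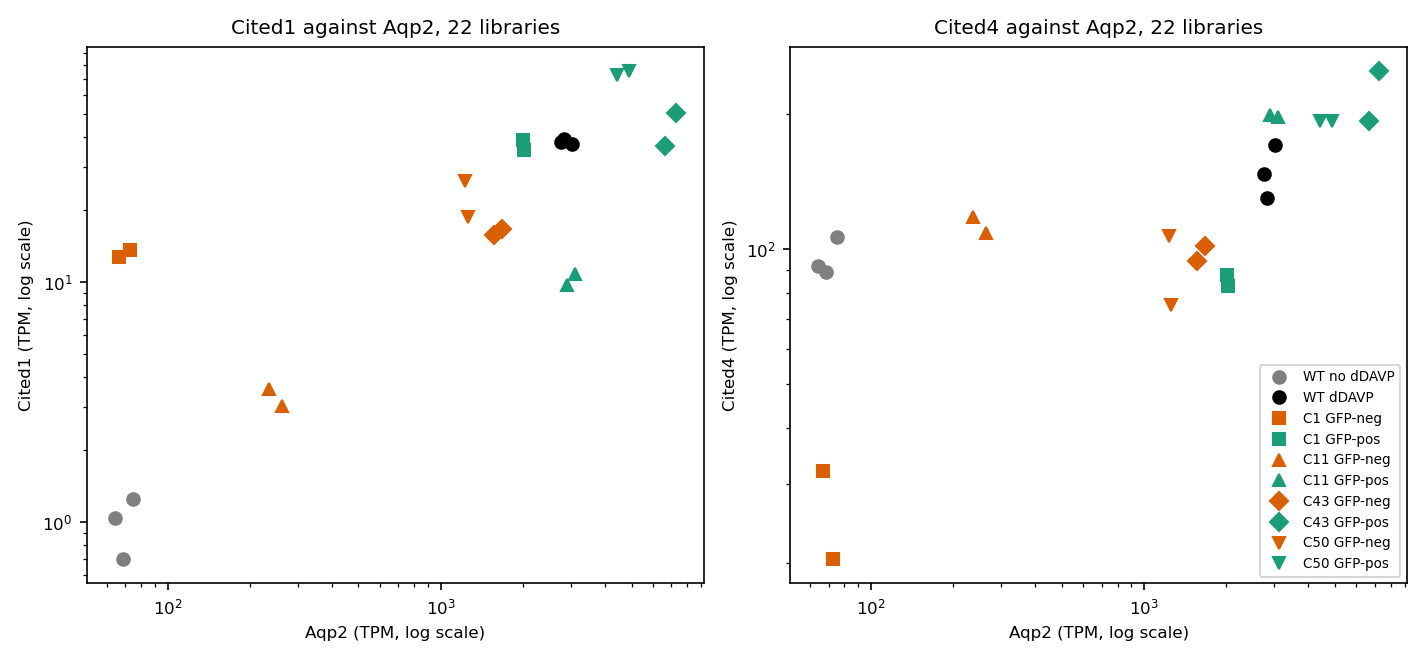
Cited1 (left) and Cited4 (right) against Aqp2, all in TPM on log axes; each point is 1 of 22 libraries, with shape for the clone and colour for the fraction or WT treatment. GFP-negative C1 lies at the Aqp2 level of WT cells without dDAVP but at 12.7 to 13.6 TPM of Cited1, and both fractions of C11 lie low on the Cited1 axis.

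Cited4 (ENSMUSG00000070803), a coactivator of AP-2 factors, was the other member that was higher in GFP-positive cells. In WT cells it was 92.1, 107 and 88.8 TPM without dDAVP and 130, 171 and 147 TPM with it. The groups did not overlap, as in 35.8% of all genes, and the log2 change was 0.63 beside a median of -0.16 over all genes. In C1 it was 20.4 and 32.1 TPM in GFP-negative and 82.9 and 87.6 TPM in GFP-positive cells. GFP-negative C1 was the lowest group of the series, and the GFP-positive fraction of that clone was still below every other GFP-positive library.

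In C11 Cited4 was 109 and 118 TPM in GFP-negative and 199 and 198 TPM in GFP-positive cells. In C43 the values were 94.4 and 102 TPM against 194 and 250 TPM. In C50 they were 107 and 75.2 TPM against 193 and 194 TPM. GFP-positive cells were higher without overlap in all 4 clones, like 6.72% of genes, and the GFP-negative libraries of C11, C43 and C50 lay between 75.2 and 118 TPM. Over the 4 clones the change was 1.19 (SE 0.126, 95% interval 0.92 to 1.46, limma adjusted p 6.47e-06), with higher values in 8 of 8 comparisons. The fold on the log2(TPM + 1) scale was 2.28 (1.89 to 2.75).

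By clone, the limma change of Cited4 (SE 0.206) was 1.70 for C1 (adjusted p 0.00051), 0.80 for C11 (0.036), 1.16 for C43 (0.00314) and 1.10 for C50 (0.00287). The call in C11 was lost in 13 of 27 alternatives, among them leaving out any of the 4 C11 libraries, with adjusted p from 0.00965 to 0.194. The F-test of a difference between clones in the change gave a limma adjusted p of 0.413, and 0.0459 without GFP-negative replicate 2 of C50. Levels differed between clones in GFP-negative (limma adjusted p 0.00014) and in GFP-positive cells (0.00228). Without C1 neither passed (0.452 and 0.805).

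Cited2 (ENSMUSG00000039910), the HIF-1 alpha competitor, was the most abundant CITED transcript in every library. In WT cells it was 540, 425 and 480 TPM without dDAVP and 480, 558 and 523 TPM with it, so the groups overlapped (log2 change 0.11, and -0.013 after quantile normalization). In the clones it ranged from 283 to 436 TPM in GFP-negative and from 280 to 460 TPM in GFP-positive libraries. The fractions did not overlap in C1 and C50, where GFP-positive cells were higher, or in C11, where they were lower, as in 54.8%, 53.5% and 61% of all genes in these clones. In C1 the gap was between 411.16 and 413.3 TPM. The WT libraries with dDAVP ranged from 480 to 558 TPM and the 16 clone libraries, which also had dDAVP, from 280 to 460 TPM. The share of all genes that separate these libraries in this way was not computed. Clonal origin, sorting and any difference in dDAVP dose or duration cannot be told apart in that difference.

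The limma change of Cited2 between fractions was -0.0072 (SE 0.0922, adjusted p 0.963), higher in 4 of 8 comparisons, and its sign turned, to 0.073, with median-ratio scaling. The 95% interval, -0.20 to 0.19, leaves out changes of the size seen for Cited1 and Cited4. The levels of Cited2 did not pass the limma test between clones in GFP-negative (adjusted p 0.26) or GFP-positive cells (0.254).

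The makeup of the CITED transcripts differed between groups accordingly. Cited1 made up 0.174 ± 0.0566% of the summed TPM of Cited1, Cited2 and Cited4 in WT cells without dDAVP and 5.46 ± 0.599% with dDAVP (SD, n = 3). Its share from GFP-negative to GFP-positive was 2.94% to 6.67% in C1, 0.626% to 1.83% in C11, 3.27% to 7.24% in C43 and 5.21% to 11.2% in C50 (n = 2 each). Cited2 kept the majority in every group, from 55.8% in GFP-positive C43 to 91.2% in GFP-negative C1. Cited4 ranged from 5.86% in GFP-negative C1 to 37.0% in GFP-positive C43. These shares restate the levels above and add no independent evidence.

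Crebbp (ENSMUSG00000022521), the gene for CBP, differed little between groups. It was 29.6, 20.2 and 24.8 TPM without dDAVP and 17.3, 24.9 and 18.6 TPM with dDAVP in WT cells, which overlap. The WT log2 change was -0.28 beside the median of -0.16, and 0.0082 after a correction for transcript length and GC content. In the clones it ranged from 15.4 to 23.7 TPM in GFP-negative and from 14.0 to 22.7 TPM in GFP-positive libraries. The limma change between fractions was -0.085 (SE 0.104, 95% interval -0.31 to 0.14, adjusted p 0.573), with higher values in 3 of 8 comparisons.

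Ep300 (ENSMUSG00000055024), the gene for p300, differed widely between libraries of a group. In WT cells it was 33.3, 32.1 and 25.6 TPM without dDAVP and 14.5, 24.9 and 21.1 TPM with dDAVP. These groups did not overlap (log2 change -0.59), although the lowest library without dDAVP exceeded the highest with it by under 1 TPM, and 35.8% of all genes had groups that did not overlap. In C50 it was 10.4 and 27.1 TPM in GFP-negative and 25.1 and 45.6 TPM in GFP-positive cells, which overlap. Over the clones it ranged from 10.4 to 30.8 TPM in GFP-negative and from 12.0 to 45.6 TPM in GFP-positive libraries. The limma change was 0.27 (SE 0.26, 95% interval -0.28 to 0.83, adjusted p 0.458), higher in 5 of 8 comparisons.

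Within a group, Ep300 was ordered as the number of genes detected above 0 TPM. In 10 of 10 groups the library with more genes detected also had more Ep300. GFP-negative C50 is an example, with 17677 genes and 10.4 TPM in replicate 1 and 30045 genes and 27.1 TPM in replicate 2. The same order held in 2 groups for Cited1, 3 for Cited2, 6 for Cited4 and 3 for Crebbp, and in all 10 groups for 1.07% of 13243 genes. This relation was looked for after the values were seen. When the fit also held the count of detected genes, the limma change of Ep300 between fractions was 0.26 (adjusted p 0.237), and its WT log2 change was -0.69.

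None of the 12 limma tests of Cited2, Crebbp and Ep300 within single clones passed (lowest adjusted p 0.179), and 0 of 12 had an unadjusted p under 0.05. Without GFP-negative replicate 2 of C50, Cited2 (0.47, limma adjusted p 0.0336) and Ep300 (1.61, 0.0248) passed in C50, where the remaining GFP-negative library is the one with the high ribosomal protein share and few genes detected. Neither Crebbp nor Ep300 passed the limma test between clones (adjusted p 0.606 and 0.814 in GFP-negative, 0.93 and 0.498 in GFP-positive cells). The summed CITED TPM per summed TPM of Crebbp and Ep300 was 10.5 ± 0.685 without dDAVP and 17.9 ± 2.51 with dDAVP in WT cells (SD, n = 3). In the clones it ranged from 11.5 to 12.7 in GFP-negative and from 11.9 to 13.02 in the GFP-positive group means of C1, C11 and C50. In GFP-positive C43 it was 17.7 ± 5.69 (SD, n = 2), from libraries at 13.6 (29973 genes above 0 TPM) and 21.7 (19556 genes). Within every group the ratio was ordered in reverse to the number of genes detected, a relation seen after the values were known. The ratio restates the levels above, the WT values behind the choice included, and adds no independent evidence.

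**Figure D3:**
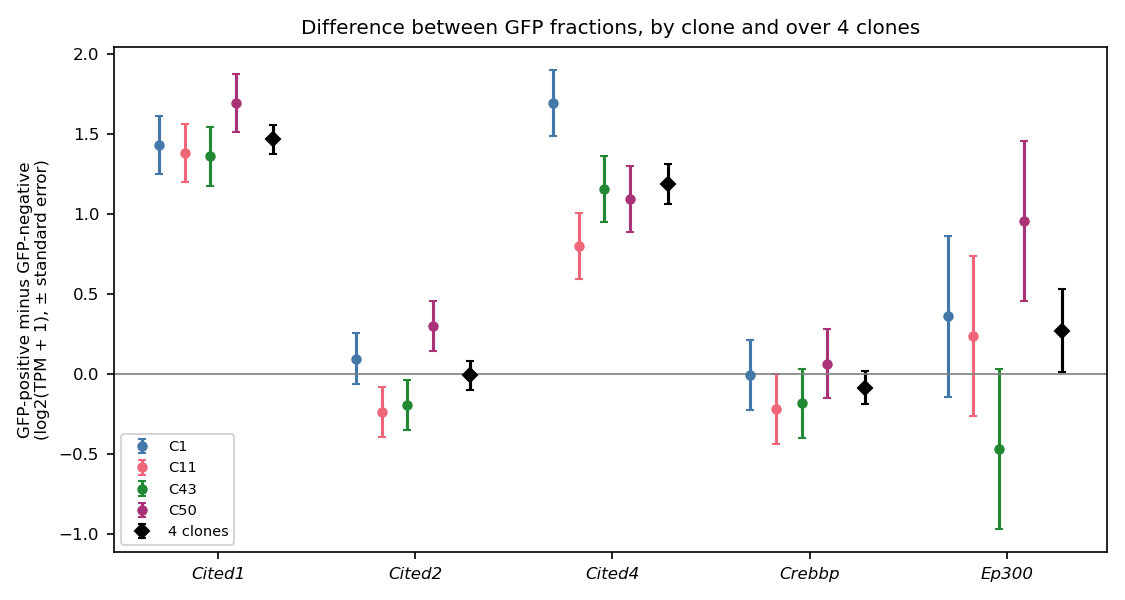
Change in log2(TPM + 1), GFP-positive minus GFP-negative, for the 5 genes; circles are single clones and black diamonds the fit over 4 clones, with bars of 1 standard error. Cited1 and Cited4 lie above 0 in every clone, and the fits over 4 clones of Cited2, Crebbp and Ep300 lie from -0.085 to 0.27.

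The partners and targets of these coactivators were read from lists. The shares of all genes called, against which the counts are read, were 12.1% higher and 23.2% lower between fractions and 2.37% higher and 6.51% lower in the WT comparison. They belong to the main fits and moved with scaling. Among 22 transcription factors that bind CITED proteins, CBP or p300, 16 were tested between fractions. Of these, 3 rose and 2 fell, with a list median of -0.0068 against -0.063 over all genes. Crem, a cAMP-responsive relative of CREB, rose by 0.76 (17.2 to 29.5 TPM, limma adjusted p 0.000158), and Tfap2a, an AP-2 factor, rose by 0.41 (10.6 to 14.4 TPM, adjusted p 0.0196). Trp53, the gene for p53, fell by 0.49 (219 to 157 TPM, limma adjusted p 0.000743), and Atf1, another relative of CREB, fell by 0.42. In the WT comparison Crem was the only one of 16 called (1.30, 11.9 to 30.9 TPM, limma adjusted p 0.0013). Over 31 alternatives the rises between fractions ran from 1 to 3 and the falls from 1 to 6, with 6 falls without GFP-negative replicate 1 of C50 and 5 without clone C50. The AP-2 genes Tfap2b and Tfap2c reached no more than 1.43 and 0.15 TPM.

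Of 14 other histone acetyltransferases and coactivators tested between fractions, 2 rose and 1 fell (median 0.017), beside 12.1% and 23.2% of all genes. Ncoa2, a nuclear receptor coactivator, rose by 0.71 (20.5 to 33.3 TPM, limma adjusted p 0.00615), and Crtc1, a CREB coactivator, rose by 0.35 (adjusted p 0.0207). Kat8, an acetyltransferase for histone H4, fell by 0.54 (18.5 to 12.4 TPM, limma adjusted p 0.000121). With median-ratio scaling 4 rose and 1 fell, beside 2391 higher among 4683 calls over all 13113 genes tested. With the length and GC correction 4 rose and 4 fell, beside 2698 higher among 5280 calls. Over 31 alternatives the rises ran from 0 to 4, with 1 without clone C1 or C43, and the falls from 1 to 4, with 4 without clone C50 or its GFP-negative replicate 1 and 2 without its GFP-positive replicate 1. None of the 14 was called in the WT comparison (limma, median -0.27), where 8.88% of all genes were called.

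Of 12 deacetylases and corepressors, 0 rose and 3 fell between fractions (limma, median -0.12), a count of falls near the 23.2% of all genes that fell. Hdac2 fell by 0.31 (126 to 101 TPM, adjusted p 0.00322) and Hdac3 by 0.25 (adjusted p 0.0223), while Hdac5 changed by -0.52 (adjusted p 0.0349, lost in 14 of 31 alternatives). In the WT comparison Hdac5 was the only call, from 31.4 to 16.9 TPM (log2 change -0.85, limma adjusted p 0.0111), where 6.51% of all genes fell. Over 31 alternatives the falls ran from 1 to 6 and the rises from 0 to 2. The falls numbered 6 without GFP-negative replicate 1 of C50, 5 without clone C50 and 1 without C11 or C43. With median-ratio scaling 1 rise was called, where 2391 of all 13113 genes tested were called higher.

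CREB target genes were mostly higher in GFP-positive cells. Of 13 tested, 9 rose and 1 fell (limma, median 0.71), against 12.1% and 23.2% of all genes. Nr4a2, an orphan nuclear receptor, rose by 0.92 (23.6 to 46.3 TPM, adjusted p 0.000134). Pde4b, a cAMP phosphodiesterase, rose by 0.81 (28.2 to 49.5 TPM, limma adjusted p 2.14e-05), and Per1, a clock gene, rose by 0.79 (35.3 to 60.6 TPM, adjusted p 0.000155). Areg, a ligand of the EGF receptor, fell by 0.74 (22.3 to 12.0 TPM, limma adjusted p 0.00399). Each of the 9 that rose was higher in 7 or 8 of 8 comparisons. Over 31 alternatives the rises ran from 7 to 11 and the falls from 0 (without clone C1, for example) to 2 (without clone C50). In the WT comparison 5 of the 13 rose and 2 fell (median 0.26), beside 2.37% and 6.51% of all genes, with Pde4b at 2.43 (5.98 to 36.8 TPM, limma adjusted p 0.00034) ahead of Crem, which stands on both lists. The 2 that fell were Fos (-0.68, 4049 to 2527 TPM, limma adjusted p 0.00722) and Dusp1 (-0.66, 1342 to 849 TPM, adjusted p 0.0013). The summed TPM of the list was 7475 to 8097 without and 5356 to 6631 with dDAVP in WT cells. The calls of Areg (0.50) and Rgs2 (0.75) were lost in 8 and 6 of 16 alternatives.

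HIF target genes, which CITED2 is known to restrain, did not move in 1 direction. Of 15 tested between fractions, 4 rose and 5 fell (limma, median -0.0044), beside 12.1% and 23.2% of all genes. Ndrg1 rose by 0.91 (351 to 650 TPM, adjusted p 2.57e-07) and Pfkfb3, a regulator of glycolysis, rose by 0.72 (20.7 to 33.9 TPM, limma adjusted p 0.00159). The glycolytic enzyme gene Pgk1 fell by 0.50 (59.9 to 42.3 TPM, limma adjusted p 1.41e-05) and P4ha1, a collagen prolyl hydroxylase gene, fell by 0.51 (58.0 to 40.2 TPM, adjusted p 0.00546). With median-ratio scaling 6 rose and 4 fell, beside 2391 higher among 4683 calls over all genes. Once length and GC were corrected for, 7 rose and 4 fell, beside 2698 higher among 5280 calls. The main fit had 1582 higher among 4626 calls, so scaling moved the balance of all genes as well. Over 31 alternatives both ran from 2 to 7, with 2 rises without clone C11, clone C43, either GFP-negative library of C43, its GFP-positive replicate 2 or GFP-positive replicate 1 of C50, and 2 falls without C43 and 3 without C1 or C11. In the WT comparison 2 of 15 rose and 1 fell (median -0.17), beside 2.37% and 6.51% of all genes, with Ndrg1 at 1.05 (limma adjusted p 0.0045). The calls of Ldha (0.29) and Mxi1 (-0.42) were lost in 9 and 11 of 16 alternatives, and between fractions those of Adm (0.33), Bnip3 (0.21) and Ankrd37 (-0.41) in 14, 13 and 12 of 31.

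**Figure D4:**
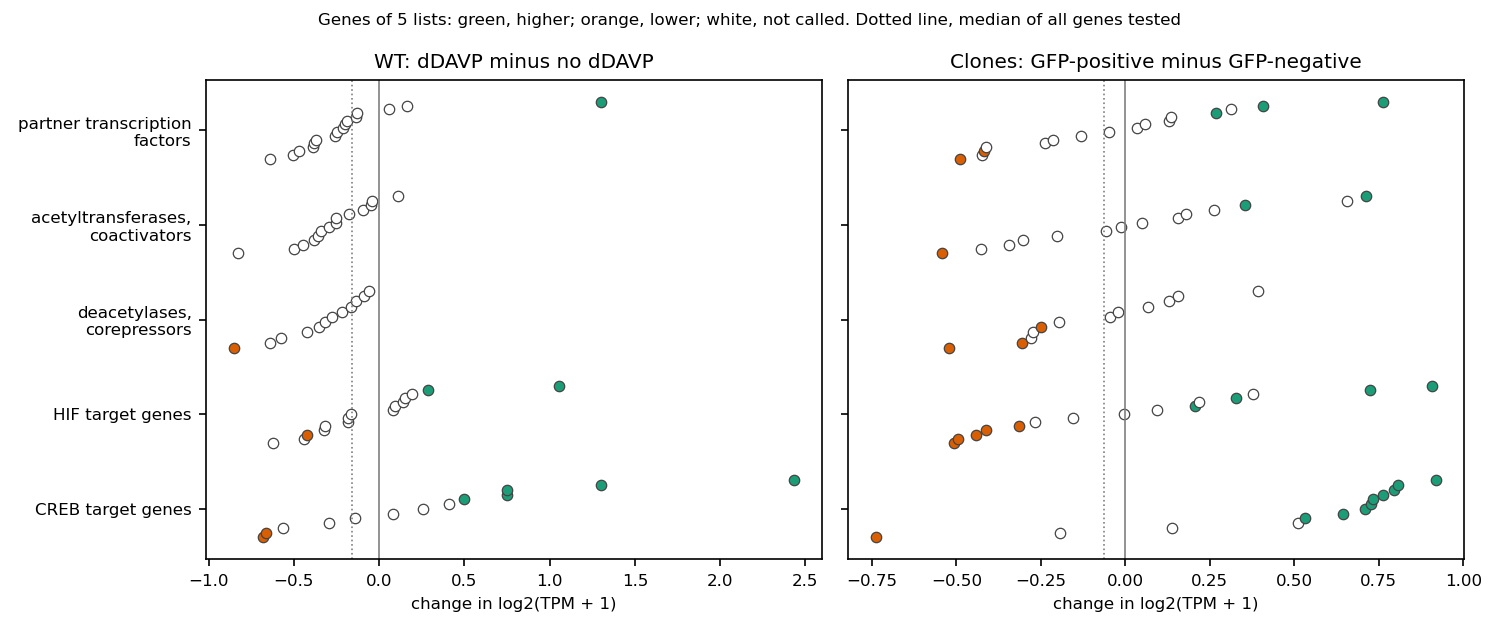
Change in log2(TPM + 1) of each tested gene of 5 lists in WT cells (left, dDAVP minus no dDAVP) and in the clones (right, GFP-positive minus GFP-negative); green points were called higher, orange lower and white neither, and dotted lines mark the median of all genes. In the clones 9 of 13 CREB targets lie to the right as called, while the HIF targets lie on both sides. The 2 panels have different scales.

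Markers of other cells were read beside the members. Summed principal cell markers were 620 to 3031 TPM in GFP-negative and 3161 to 10796 TPM in GFP-positive libraries, Aqp2 included. Among the markers other than Aqp2, Fxyd4, a modulator of the sodium pump, rose by 1.94 and Avpr2, the V2 receptor gene, by 1.16 (limma adjusted p 2.29e-07 and 5.03e-09), and 5 of 8 tested rose and 1 fell, beside 12.1% and 23.2% of all genes. The 1 that fell was Aqp3, a water channel gene at 2.21 TPM in GFP-negative and 0.975 TPM in GFP-positive cells (-0.64, limma adjusted p 0.0195). In the WT comparison 2 of 8 rose, Fxyd4 (1.06) and Avpr2 (0.57), and 2 fell, Scnn1a (-0.60) and Scnn1g (-0.75), both sodium channel subunit genes (limma adjusted p from 0.00102 to 0.0435, with the calls of Scnn1a and Scnn1g lost in 10 and 9 of 16 alternatives). Summed intercalated markers were 202 to 329 TPM against 325 to 618 TPM, where Car2 (0.66, limma adjusted p 2.63e-05) and Atp6v1b1 (0.81, adjusted p 0.00899) rose among 3 tested. The third, Slc4a9, an anion exchanger gene at 2.18 and 3.69 TPM, was not called (0.38, limma adjusted p 0.201). Foxi1, Slc4a1, Slc26a4, Atp6v1g3, Atp6v0d2 and Kit reached at most 0.7 TPM in any library. Of the 3 intercalated markers tested in the WT comparison, Rhcg among them, 0 were called (limma, lowest adjusted p 0.487). Proximal tubule markers summed to 0.94 to 14.3 TPM against 4.04 to 16.6 TPM, and the 1 tested, Lrp2, an endocytic receptor gene, rose by 0.56 (5.94 to 8.61 TPM, limma adjusted p 0.00525). Summed fibroblast and endothelial markers each reached at most 1.91 TPM in any clone library. The part of these markers in the Cited1 and Cited4 results was not tested.

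Nephron progenitor markers, read because Cited1 is itself 1 of them in the embryo, gave no call between fractions. They summed to 15.96 to 39.6 TPM in GFP-negative and 19.5 to 35.2 TPM in GFP-positive libraries. The defining genes Six2 and Gdnf reached no more than 0.22 TPM in any of 22 libraries, while Eya1 (7.13 to 34.9 TPM), Pax2 (4.71 to 19.4) and Osr1 (0.55 to 8.23) were detected throughout. The 3 markers tested between fractions were Eya1, Pax2 and Osr1 (limma, 0 called, list median -0.22). In the WT comparison Eya1 (-0.78, limma adjusted p 0.0495) and Osr1 (-0.75, adjusted p 0.0414) fell, in the direction opposite to Cited1, and each call was lost in 11 of 16 alternatives.

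The genes with the most similar pattern to Cited1 were ranked by Pearson r of group means of log2(TPM + 1) over 10 groups. The ranking covered 9594 genes with a mean of at least 5 TPM over groups and left out provisional symbols. The groups share treatment and clone, and genes ranked this way are a description with no test. Mt1 (r 0.979) and Mt2 (0.962), which encode metallothioneins, and Lypd3 (0.974), which encodes a membrane-anchored protein, came first, followed by Pnp (0.864) and Atp6v0a4 (0.843). Mt1 was 1254 to 1602 TPM in WT cells without dDAVP and 4945 to 5857 TPM with it. It was lowest among the clones in GFP-negative C11 (2054 and 1879 TPM) and highest in GFP-positive C50 (7831 and 7887 TPM), the same extremes as Cited1.

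Lypd3 was 20.1 to 21.3 TPM in WT cells without dDAVP and 83.2 to 94.3 TPM with it. Like Cited1 it was low in both fractions of C11, at 27.5 and 28.7 TPM in GFP-negative and 48.3 and 48.6 TPM in GFP-positive cells. In GFP-negative C1 it was 69.1 and 69.0 TPM, above the WT libraries without dDAVP. Over the 8 clone groups alone the leading genes were Mt1 (0.962), Pnp (0.954), Lypd3 (0.95), Hsd11b2 (0.938) and Tlcd1 (0.931). The closest genes over 10 groups were Dcxr (0.981) and Sat2 (0.978) for Cited4, Arv1 (0.947) and Tlk1 (0.937) for Cited2, Ext2 (0.985) and Uhrf2 (0.968) for Crebbp, and Sec24a (0.968) and Exoc6b (0.928) for Ep300.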

How the data were processed

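RNA of 22 libraries was measured by RNA-seq, with cDNA from the SMART-Seq HT kit and paired-end sequencing of Nextera XT libraries, per the labels' protocols. The authors deposited TPM per gene and library, and STAR and RSEM are named in the submitters' processing notes, while their versions, the genome build and the annotation are not given in the sources used here. The deposited table also holds the authors' ratio of group mean TPM for each comparison, which was read only to check the ratios computed here. Lines that share a symbol (980 lines, 79 symbols) were summed. TPM keeps no depth, so no count test or interval from counts was possible and the number of libraries sets the precision.

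Linear models were fitted to log2(TPM + 1), a pseudocount of 1, for genes with a mean of at least 1 TPM over the libraries compared, in limma 3.58.1 under R 4.3.3, with a mean-variance trend. Tests were two-sided, with Benjamini-Hochberg adjustment over all genes and a threshold of 0.05. Groups were taken from the sample labels. The fit between fractions used 16 clone libraries with the clone as covariate, the fits by clone and the F-tests used a mean per clone and fraction, and the fit in WT cells used 6 libraries. Deviations of same-numbered libraries from their group means gave correlations of -0.21 to -0.025 for the 3 WT numbers and of 0.015 to 0.203 for the 4 clones (highest in C43), so not every pair passed 0.1 and the numbers were not treated as pairs. Alternatives were another pseudocount, filter, scaling or moderation, a replicate block, detected genes as covariate, clone means, a length and GC correction (values for 98.7% of genes, chosen for WT cells after seeing the data) and the omission of single libraries or clones. The code was tested on simulated data.

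Named genes were the 5 members, Aqp2 and GFP, up to 4 called genes per list, direction and comparison with the largest change, list genes near 0, the gene next below Cited1 in the WT comparison, and the genes most like each member. The members and lists were chosen with earlier results of these data known. Of the HIF list, Ca9 did not match an entry. A called gene of the partner list is not reported here by name. Markers of the thick limb and distal tubule summed to at most 2.22 TPM in any library, and immune markers to 3.27 to 13.3 TPM in the clones, mostly Cd68.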

Additional observations from a re-analysis of the deposited data

How the results depend on the processing

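Cited1 and Cited4 kept their direction and their call between fractions in all 31 alternatives, with Cited1 at 1.39 to 1.66 (limma adjusted p 7.11e-09 to 0.00161) and Cited4 at 1.02 to 1.48 (1.55e-06 to 0.00573). Crebbp (-0.14 to -0.00051) and Ep300 (0.043 to 0.52) passed in none. Cited2, near 0, turned positive with median-ratio scaling (0.073), quantile normalization (0.019), the length and GC correction (0.092) and without clone C11 (0.069) or C43 (0.054), ran from -0.066 to 0.054 when 1 library was left out, and was -0.11 without clone C50. Cited4 in C11, at 0.80, lost its call with every gene above 0 TPM tested, with no trend and without clone C43, and ran from 0.75 to 0.86 when 1 library was left out. The F statistic between clones lost its call for Cited4 without C1 (1.86 in GFP-negative, 0.632 in GFP-positive cells) and for Cited1 without C11 (6.68, GFP-negative), and that of Cited4 between changes gained one without GFP-negative replicate 2 of C50 (5.36). Over the omission of single libraries and clones these F values ran to 80.8 and 33.3 for Cited4 and 102 for Cited1, and from 1.19 to 7.45 for the changes of Cited4. The cause was not tested.

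Genes called between fractions numbered 4626 (1582 higher), 2406 with clone means as replicates, 4683 (2391 higher) with median-ratio scaling, 5073 (2560) with quantile normalization and 5280 (2698) with the length and GC correction. In WT cells the 1198 calls (320 higher) became 442 with every gene above 0 TPM tested, 691 with no trend, 2694 with detected genes as covariate, 902 (575 higher) with median-ratio scaling, 810 (438) with quantile normalization and 1204 (729) with the length and GC correction. They ran from 314 without replicate 3 of the group with no dDAVP to 2038 without replicate 2 of the dDAVP group. The WT median of all genes moved from -0.16 to -0.0012 with median-ratio scaling, where the members stood at 4.44 (Cited1), 0.29 (Cited2), 0.80 (Cited4), -0.12 (Crebbp) and -0.42 (Ep300). With the replicate block 122 WT genes and 4259 between fractions were called, 0 of 3 WT libraries correlated best with their own number, and Cited1 and Cited4 kept their calls between fractions. Depth is unknown in TPM, and 2 libraries per clone and fraction limit every value given for a single clone.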

Other observations

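Among the genes of the lists, 3 were called in opposite directions in the comparisons, which share no library. Fos, an immediate early gene, was 4049 TPM without and 2527 TPM with dDAVP in WT cells (log2 change -0.68, limma adjusted p 0.00722), and 2208 TPM in GFP-negative and 3375 TPM in GFP-positive clone cells (0.64, adjusted p 0.000299). Areg was 12.4 and 17.9 TPM in WT cells without and with dDAVP (0.50, limma adjusted p 0.0431, lost in 8 of 16 alternatives), and 22.3 and 12.0 TPM in GFP-negative and GFP-positive cells. Scnn1g, a subunit of the epithelial sodium channel, was 26.4 and 15.4 TPM in WT cells (-0.75, limma adjusted p 0.0295, lost in 9 of 16 alternatives), and 11.6 and 26.3 TPM in the fractions (1.14, adjusted p 8.27e-06). These genes were singled out after their values were seen.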
